A study of Mus musculus with 6 samples.

Results

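The 4 probes described here belong to a mouse microRNA (miRNA) array: the 3 probes named for miR-142 and the probe for miR-150. By the identifiers in the value table they are 1org-142-s (miR-142-s), 1org-142-as (miR-142-as), 2org-142* (miR-142*) and 1org-150 (miR-150). They are 4 of the 178 probes in the value table and 4 of its 171 miRNA probes, and were chosen by identifier. Total RNA of mouse CD4+CD25+ cells, the natural regulatory T cells that restrain other T cells, was hybridised on each array together with total RNA of CD4+CD25- conventional T cells. The CD4+CD25+ sample carried the dye Cy5 on arrays 1, 3 and 5 and Cy3 on arrays 2, 4 and 6. The 6 arrays stand for 3 biological replicates and their dye swaps. The labels used here give no strain, age, sorting scheme, number of animals or pooling, and do not say which arrays form a swap. CD25 also marks activated conventional T cells, so the sorted population need not be regulatory T cells alone.

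miRNAs are short RNAs cut from a hairpin precursor. Either arm of the hairpin can be loaded into an Argonaute protein, where bases 2 to 8 of the strand, the seed, select the messenger RNAs to be repressed. miR-142 is made in blood cells of nearly all lineages and hardly elsewhere, and both of its strands are abundant there. miR-150 is abundant in mature resting lymphocytes, falls when T cells are activated, and is best known for repressing the transcription factor Myb.

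The older names miR-142-s and miR-142-as correspond to the strands now called 5p and 3p. The hairpin of the RefSeq gene Mir142 (GRCm38.p6, chr11:87756864-87756927, plus strand, 64 bases) is shown first, with its 2 mature strands in capitals, because the comparison below is between them. The 5p strand takes up bases 4 to 24 and the 3p strand bases 40 to 62, and in the best ungapped register 19 positions of the 2 strands can pair. The mature strands follow with the seed in capitals.
Mir142 hairpin: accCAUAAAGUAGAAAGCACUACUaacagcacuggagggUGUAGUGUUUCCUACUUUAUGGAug
miR-142-s (miR-142a-5p): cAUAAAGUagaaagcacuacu
miR-142-as (miR-142a-3p): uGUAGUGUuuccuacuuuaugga

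The 2 seeds differ, and 0 other mature strands among the 1679 names of the RefSeq table carry either of them. The labels do not tie the miR-142* probe to one strand or the other. It is therefore described by its own values, which are no independent support for those of miR-142-as. RefSeq lists Mir150 as a gene of its own, and its strand miR-150-5p is named only.

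The value table holds a log ratio of both channels, read here as log2 of Cy5 over Cy3. Neither the log base, the direction nor the normalization is stated. Arrays with the CD4+CD25+ sample in Cy3 were multiplied by -1, so that a value below 0 reads as lower in CD4+CD25+ cells. If the ratio ran the other way every sign would turn. The turned array medians over miRNA probes lay from -0.312 to 0.097 with CD4+CD25+ in Cy5 and from 1.29 to 1.83 with it in Cy3, so values against 0 and values against the array median are both given. The number of arrays limits the precision, and signal over background is unknown.

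Without centring, the miR-142-as, miR-142* and miR-150 probes were lower in CD4+CD25+ than in CD4+CD25- cells, by a factor of 2.29, 2.45 and 2.05. The size depended on the zero point, with log2 ratios of -1.97, -2.06 and -1.81 against the array median. For all 3 probes these means average both dye orientations, and against the median the values were far lower with CD4+CD25+ in Cy3. With the small nuclear RNA U6 and the tRNA probes as zero none of the 3 passed (limma adjusted p of 0.0561 to 0.197). miR-142-s did not pass the test without centring and passed as lower relative to the array median. Against a background of 8.77% of all miRNA probes called lower and 67.3% called higher, 3 of the 4 probes were called lower and 0 higher. A call is a limma adjusted p (Benjamini-Hochberg over the 171 miRNA probes) under 0.05 in each of the 6 possible pairings of opposite arrays. The SD and p given are the largest over those pairings, with n = 3 pair means. The p and intervals rest on a variance pooled over probes and do not follow from the SDs. Counted from the lowest of the 171 mean ratios, miR-142* had rank 2, miR-142-as rank 3 and miR-150 rank 5, with miR-30b at rank 1 and miR-26b at rank 4. None of the 3 was called when arrays 3 and 2 or arrays 5 and 6 were left out (limma adjusted p of 0.0594 to 0.0841), although all 3 stayed below 0. Nearly every call on the array was lost in these 2 fits, which called 0 probes lower and 0 and 1.17% of probes higher (13 and 14 lower, 85 and 71 higher at an unadjusted p under 0.05).

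miR-142-as, the 3p strand, had turned log2 ratios of -1.139, -1.169 and -0.70 on arrays 1, 3 and 5 and of -0.955, -2.197 and -1.012 on arrays 2, 4 and 6. It was below 0 on 6 of 6 arrays, and array 4 lay apart from the other 5. The mean was -1.20 ± 0.440 (SD, n = 3), with a 95% interval of -1.73 to -0.66 and an adjusted p of 0.00569.

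The miR-142* probe gave -0.977, -1.127 and -0.818 on arrays 1, 3 and 5 and -1.243, -2.491 and -1.092 on arrays 2, 4 and 6. Here too all 6 values were below 0 and array 4 was the lowest. The mean was -1.29 ± 0.455 (SD, n = 3), with a 95% interval of -1.83 to -0.76 and an adjusted p of 0.00569.

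miR-150 had turned log2 ratios of -0.418, -0.789 and -1.022 on arrays 1, 3 and 5 and of -1.108, -1.519 and -1.343 on arrays 2, 4 and 6. All 6 were below 0, and the 3 arrays with CD4+CD25+ in Cy3 were all lower than the 3 with it in Cy5. The mean was -1.03 ± 0.255 (SD, n = 3), with a 95% interval of -1.57 to -0.50 and an adjusted p of 0.00569. Its SD over the pairings was the smallest of the 4 probes. The call was lost after scale normalization (-1.08, adjusted p = 0.0711) and with only the arrays with CD4+CD25+ in Cy5 (-0.74, adjusted p = 0.131).

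miR-142-s, the 5p strand, gave -1.236, -0.771 and 0.547 on arrays 1, 3 and 5 and 0.084, -0.257 and 0.038 on arrays 2, 4 and 6. Its values lay on both sides of 0, with 3 of 6 arrays below. The mean was -0.27 ± 0.538 (SD, n = 3), with a 95% interval of -0.82 to 0.29 and an adjusted p of 0.347, so the interval holds 0 as well as a fall of up to 0.82. The spread sat in the arrays with CD4+CD25+ in Cy5, where the SD was 0.925 against 0.185 in the other orientation.

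Being below 0 on 6 of 6 arrays was shared by 8.77% of miRNA probes. On array 1 miR-142-s was the 4th lowest of the 171 miRNA probes and lower than miR-142-as (8th), miR-142* (16th) and miR-150 (48th). On array 5 miR-142-s was 125th from the lowest, while miR-142-as, miR-142* and miR-150 were 15th, 9th and 5th. Arrays 1 and 5 thus gave opposite orders of the 2 strands.

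**Figure D1:**
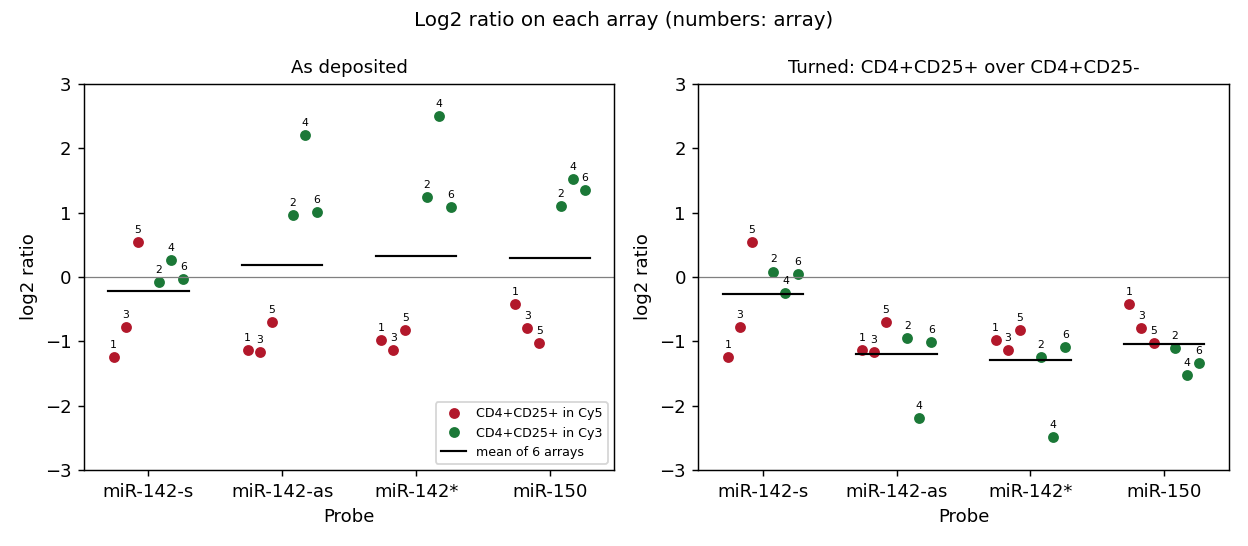
Log2 ratio of each probe on each of the 6 arrays, as deposited (left) and with the sign of the CD4+CD25+ in Cy3 arrays turned (right). Points are arrays, coloured by the dye of the CD4+CD25+ sample and numbered, and bars are means of 6 arrays; as deposited, miR-142-as, miR-142* and miR-150 lie below 0 in one orientation and above 0 in the other, and after turning all their values are below 0, while miR-142-s spans 0.

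The calls depend on the turning, and whether the authors turned the swapped arrays before deposit is not stated. For miR-223, the highest ratio of the array, the turned means were 4.05 with CD4+CD25+ in Cy5 and 4.18 with it in Cy3. Its deposited values thus changed sign with the dye, as a ratio that was not turned would. After turning, 70.2% of miRNA probes differed between the dye orientations (limma adjusted p under 0.05). Without turning, the means were 0.19 for miR-142-as, 0.32 for miR-142*, 0.29 for miR-150 and -0.22 for miR-142-s, and none of the 4 was called (limma adjusted p of 0.262 to 0.498), against 51.5% of miRNA probes called lower and 1.75% called higher. For the first 3, the deposited values were below 0 on every array with CD4+CD25+ in Cy5 and above 0 on every array with it in Cy3.

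Each array was then referred to other zero points. Against the array median all 4 probes were called lower, against a background of 22.8% of miRNA probes called lower and 5.26% called higher. miR-142-as stood at -1.97 ± 0.262 (SD, n = 3; limma adjusted p = 1.48e-05), miR-142* at -2.06 ± 0.252 (adjusted p = 1.41e-05), miR-150 at -1.81 ± 0.299 (adjusted p = 3.82e-05) and miR-142-s at -1.04 ± 0.463 (adjusted p = 0.00158). miR-142-s was below the median on 5 of 6 arrays, array 5 being the exception, and the other 3 probes on 6 of 6. With CD4+CD25+ in Cy5 those 3 lay at -1.054 to -0.797 (miR-142-as), -0.915 to -0.815 (miR-142*) and -1.119 to -0.333 (miR-150). With it in Cy3 they lay at -3.485 to -2.783, -3.779 to -2.914 and -3.165 to -2.807. Their means fall between these levels, and the SDs of pair means leave the gap out. With the mean of 28 probes for miRNAs of other tissues as zero the 4 were again called lower, miR-142-s at -1.15, against 22.8% of miRNA probes called lower and 4.68% higher. With the small nuclear RNA U6 and the tRNA probes as zero, 0.585% of miRNA probes were called lower and 73.7% higher, and none of the 4 was called. miR-142-as stood at -0.73 (adjusted p = 0.0931), miR-142* at -0.83 (adjusted p = 0.0561), miR-150 at -0.57 (adjusted p = 0.197) and miR-142-s at 0.20 (adjusted p = 0.683). The U6 and tRNA probes are among only 7 probes of the array that are not for miRNAs. Their turned mean was 0.52 on array 3 and from -0.76 to -0.49 on the other arrays, so this zero point was itself uneven. The level of miR-142-s against 0 depended on the zero point and had no settled sign.

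**Figure D2:**
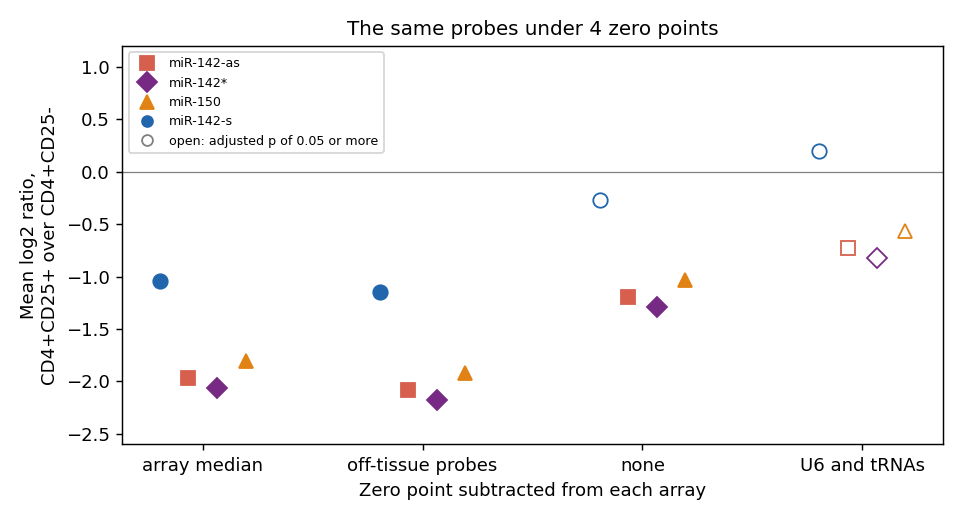
Mean log2 ratio of the 4 probes (y axis) with 4 quantities as zero point of each array (x axis); filled symbols have a limma adjusted p under 0.05 and open ones do not. The distances between the probes are the same under every zero point, and miR-142-s moves from -1.15 with off-tissue probes to 0.20 with U6 and tRNAs.

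**Figure D3:**
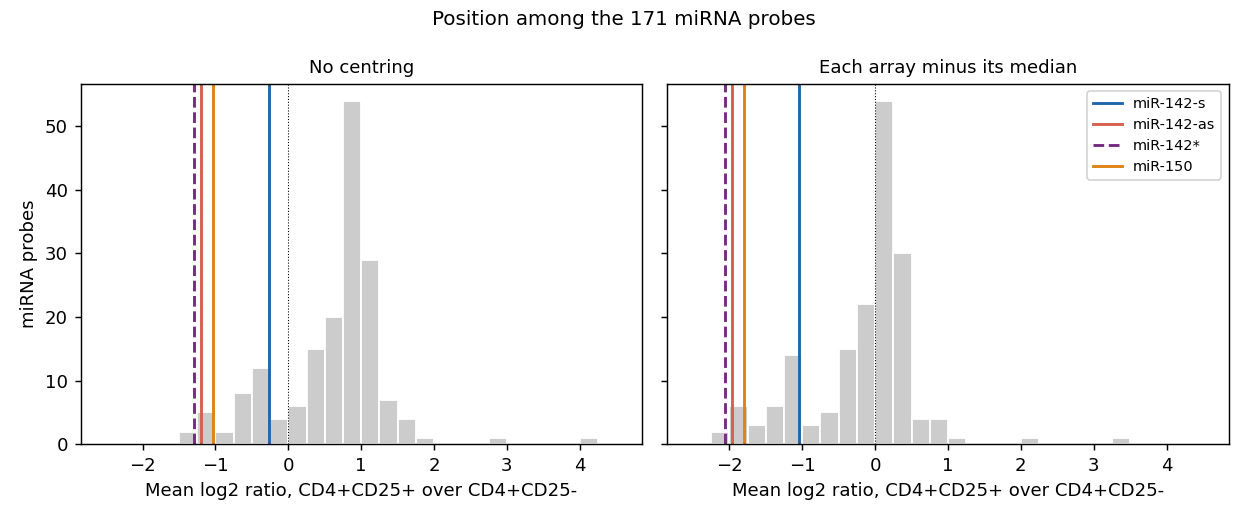
Distribution of the mean log2 ratio over the 171 miRNA probes (bars, number of probes on the y axis), without centring (left) and relative to each array's median (right), with lines at the 4 probes. miR-142-as, miR-142* and miR-150 lie at the low end of all probes, and miR-142-s, 29th from the lowest, lies between them and the bulk of probes around the median.

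The probes were next set against each other within each array, where any zero point drops out. For each of the 6 member pairs one probe was subtracted from all others on every array, the same limma fit was run over the remaining 170 miRNA probes, and the larger adjusted p of both directions of subtraction was kept.

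The limma fit called the log2 ratios of the 2 strands of the miR-142 hairpin different. All probes in that fit share the spread of the subtracted probe, while limma treats them as independent. The adjusted p may therefore be too small and the intervals too narrow. The intervals and p in this paragraph rest on a variance pooled over probes and do not follow from the SDs. For the differences of miR-142-s from the other probes the intervals are equally wide although the SDs are not the same. miR-142-s minus miR-142-as was -0.097, 0.398 and 1.247 on arrays 1, 3 and 5 and 1.039, 1.94 and 1.05 on arrays 2, 4 and 6. It was above 0 on 5 of 6 arrays, array 1 being just below. The mean difference of the log2 ratios was 0.93 ± 0.589 (SD, n = 3), a factor of 1.90, with a 95% interval of 0.24 to 1.62 and an adjusted p of 0.0123. Against miR-142*, miR-142-s differed by 1.03 ± 0.700 (95% interval 0.34 to 1.71, adjusted p = 0.00618), on 5 of 6 arrays. Against miR-150 it differed by 0.77 ± 0.653 (95% interval 0.079 to 1.46, adjusted p = 0.0403), also on 5 of 6 arrays. Of the 170 other probes, 4.12% were called lower than miR-142-s and 72.4% higher, and the 3 other probes described here were among the lower ones. Measured from the other side, 93.5% of the 170 other probes were called higher than miR-142-as, 95.3% higher than miR-142* and 90.6% higher than miR-150. None was called lower than any of these 3 by limma (0 at an unadjusted p under 0.05).

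With CD4+CD25+ in Cy5 the strands differed by a mean of 0.52 over 3 arrays (limma adjusted p = 0.753) and with it in Cy3 by 1.34 (adjusted p = 0.000357); the gap between these values was not tested. The values did not overlap except for array 5, at 1.247, which lay among those of the Cy3 arrays. After scale normalization the difference was 0.91 and was not called (adjusted p = 0.256). That step brought the turned arrays to the same median absolute ratio without centring, so the array offsets enter it as well as the spread. Leaving out array 3 together with array 2, 4 or 6 also ended the call (adjusted p of 0.110, 0.116 and 0.118, differences of 1.04, 0.81 and 1.03). The differences of miR-142-s from miR-142* and from miR-150 were lost under the same settings (adjusted p of 0.237 and 0.360 after scale normalization), and that from miR-150 also whenever array 5 was left out (0.41 to 0.46, adjusted p of 0.116 to 0.297).

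miR-142-as and miR-142* could not be told apart. Their difference was -0.162, -0.042 and 0.118 on arrays 1, 3 and 5 and 0.288, 0.294 and 0.08 on arrays 2, 4 and 6. The mean was 0.096 ± 0.126 (SD, n = 3), with a 95% interval of -0.35 to 0.54 and an adjusted p of 0.674. Their root mean square difference over the 6 arrays was 0.190, the 18th smallest of 14535 pairs of miRNA probes, for which the median was 1.17.

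miR-150 did not differ from the 2 lower miR-142 probes beyond its spread. miR-142-as minus miR-150 was -0.721, -0.38 and 0.322 on arrays 1, 3 and 5 and 0.153, -0.678 and 0.331 on arrays 2, 4 and 6, with 3 arrays on each side of 0. The mean was -0.16 ± 0.515 (95% interval -0.76 to 0.44, limma adjusted p = 0.584). miR-142* minus miR-150 was -0.26 ± 0.497 (95% interval -0.81 to 0.30, adjusted p = 0.375). These intervals allow a difference of either sign. The order of the mean ratios from lowest was miR-142*, miR-142-as, miR-150 and miR-142-s, of which the first 3 neighbours did not differ beyond their spread and miR-142-s stood above each.

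**Figure D4:**
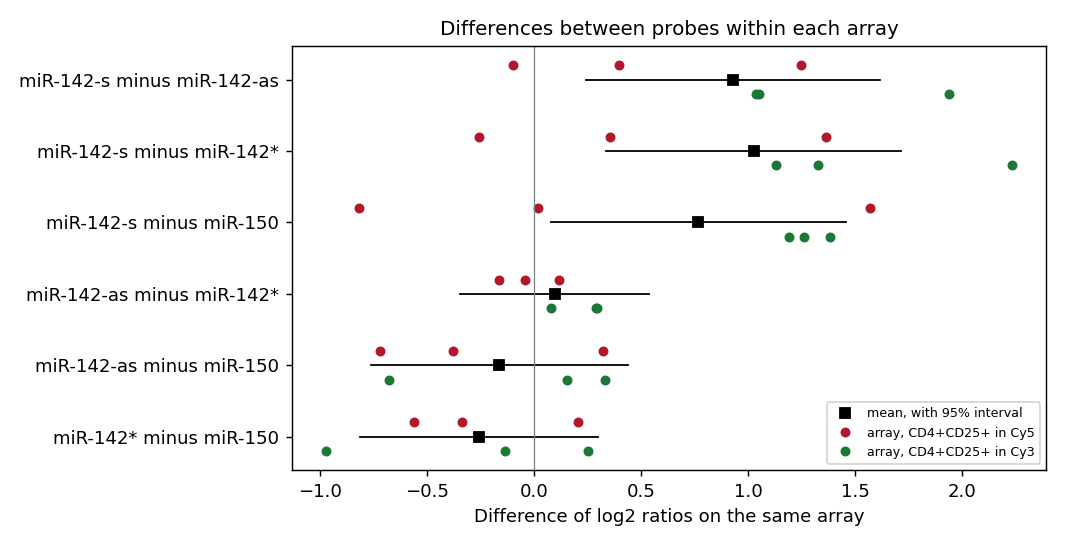
Difference of log2 ratios between 2 probes on the same array (x axis) for the 6 pairs of probes (y axis). Squares and lines are the mean and 95% interval from limma, points are the 6 arrays coloured by the dye of the CD4+CD25+ sample; the 3 intervals with miR-142-s lie above 0, and the other 3 include 0.

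By the suffixes in the probe names, the array also carried more than 1 strand of 9 other hairpins, a comparison chosen after their values were seen and given without a test. The miR-142* probe was matched by its suffix as a strand of its own, so a pair with it may be 2 probes of the same strand. Among the 12 probe pairs matched in this way over 10 hairpins, the gap between miR-142-s and miR-142-as had rank 3 by size. Ahead of it were miR-17-3p and miR-17-5p of the miR-17/miR-92 cluster (1.57 ± 1.07, SD, n = 3, above 0 on 4 of 6 arrays) and miR-142-s and miR-142*. miR-126 minus miR-126*, strands of an endothelial hairpin, followed at -0.54 ± 0.528. For miR-199-as minus miR-199-s the difference was -0.069, for miR-9 minus miR-9* 0.033 and for miR-182 minus miR-182* -0.027. Strands with a number of their own were not matched and are outside that rank. One of them, miR-213, comes from a miR-181a hairpin and had a mean ratio of 0.82 beside -0.69 for the miR-181 probe, a wider gap than between the miR-142 strands.

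The ratio was also compared between the dye orientations. Over all miRNA probes, turned arrays of opposite orientation correlated at -0.25 to 0.37, with a median of 0.058. Among the arrays with CD4+CD25+ in Cy3 the correlations were 0.90 to 0.92, and among those with it in Cy5 0.52 to 0.62. The mean turned ratio with CD4+CD25+ in Cy5 was -1.003 for miR-142-as, -0.97 for miR-142*, -0.74 for miR-150 and -0.49 for miR-142-s. With it in Cy3 the means were -1.39, -1.61, -1.32 and -0.045. In a limma fit over 6 arrays with a dye column 0 of the 4 were called (adjusted p of 0.198 to 0.431, 0 at an unadjusted p under 0.05), against 70.2% of all miRNA probes. The differences by dye had wide intervals, for miR-142-s from -1.39 to 0.51 and for miR-142* from -0.29 to 1.56. Relative to the array median the same 4 were all called, with ratios lower by 1.30 (miR-142-s), 2.13 (miR-142-as), 2.38 (miR-142*) and 2.33 (miR-150) when CD4+CD25+ was in Cy3, against 45.6% of all miRNA probes.

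With the 4 probes themselves left out, the probes whose values were nearest over the 6 turned arrays were found by the root mean square difference, a description over 6 arrays that share dyes and scans. For miR-142-as the nearest was miR-19a, of the miR-17/miR-92 cluster, at 0.180, slightly closer than miR-142* at 0.190. Among the probes outside the 4, let-7c at 0.520 and miR-30b at 0.523 came next (miR-150 lay at 0.476), against a median of 2.37 to all other probes. Outside the 4, miR-142* had the same 3 in another order, with miR-19a at 0.340, miR-30b at 0.437 and let-7c at 0.491. For miR-150 the nearest were let-7c at 0.336, miR-30c at 0.375 and miR-26a at 0.448. All 5 of these probes were themselves called lower, with mean ratios from -1.33 (miR-30b) to -0.73 (miR-26a), beside 8.77% of all miRNA probes. Because nearness was measured on these same ratios, that follows from how the 5 were picked.

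miR-142-s had other neighbours and none as near: miR-195 at 0.577, miR-194 at 0.626 and let-7d* at 0.635, against a median of 1.47. Their mean ratios were -0.013, 0.14 and -0.37, and none of the 3 was called. That the miR-142 strands lay beside different probes follows from the distance between their own ratios and is no further support for it. The nearest probe to miR-142-as and the nearest to miR-150 are shown for comparison with the strands above, in the RefSeq sequences of GRCm38.p6 with the seed in capitals, and neither seed is that of a miR-142 strand.
miR-19a (miR-19a-3p): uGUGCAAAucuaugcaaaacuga
let-7c (let-7c-5p): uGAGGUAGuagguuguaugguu

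Other miRNAs known from blood cells were then listed. Of 6 further probes, 3 were higher, 1 was lower and 2 were not called, beside 67.3% higher and 8.77% lower over all miRNA probes, with a median of 0.81 beside 0.82 over all miRNA probes. miR-223, a marker of myeloid cells, had the highest ratio of the array at 4.12 ± 0.855 (SD, n = 3; limma adjusted p = 0.000103). miR-146, induced by NF-kB signalling, had 1.72 ± 0.517 and miR-155, induced on activation, 1.23 ± 0.453. The mean of miR-155 was 0.27 with CD4+CD25+ in Cy5 and 2.19 with it in Cy3, beside 2.04 and 1.40 for miR-146. The SDs of pair means leave such a gap out. The miR-181 probe, of a family that tunes T cell receptor sensitivity, was lower at -0.69 ± 0.338 (adjusted p = 0.0159), while miR-181b at 0.17 and miR-181c at 0.38 were not called. Relative to the array median 2 of the 6 were higher, miR-223 and miR-146, and 2 lower, miR-181 and miR-181b, beside 5.26% and 22.8% over all miRNA probes.

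Markers of other cells were read in the same way. Besides miR-223, the erythroid miR-144 had 0.69 ± 0.870 without centring and was not called after median centring. Of 28 probes for miRNAs of nerve, liver, muscle, epithelium or embryonic stem cells, 26 were called higher without centring (median 0.86, range 0.55 to 1.25), beside 67.3% of all miRNA probes and their median of 0.82, and 0 after median centring in limma (2 at an unadjusted p under 0.05). Of 9 endothelial or stromal probes 9 were higher without centring (median 1.09) and 2 after, beside 67.3% and 5.26% of all miRNA probes. The 2 were miR-214 (2.14 relative to the array median) and miR-126* (0.59). The part of other cells in the miR-142 and miR-150 ratios was not tested. In bulk RNA, fewer cells of a type and less of an RNA per cell cannot be told apart.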

How the data were processed

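The deposited table holds 1 log2 ratio (log base taken as 2, not stated) per probe and array. What the authors did in background correction, normalization, centring or turning is not given in the sources used here, and no genome build is named. Probes were identified by the number in their ID. The members and lists were chosen with earlier results of these data known.

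Arrays with CD4+CD25+ in Cy3 were multiplied by -1. limma (version 3.58.1, R 4.3.3; lmFit and eBayes with an intercept) was fitted over 171 miRNA probes to 3 means of opposite-dye pairs, for all 6 pairings, keeping the largest adjusted p, the largest SD and the outermost interval bounds. With 3 replicates the smallest two-sided p of an exact sign-flip test is 0.25, so none was run. Nothing says that the replicates came from separate animals, so p-values cannot be read as measuring the spread between animals. They and the intervals rest on a variance pooled over probes, do not follow from the SDs, and give a probe's own spread little weight. The intervals of miR-142-as (SD 0.440, -1.73 to -0.66) and miR-150 (SD 0.255, -1.57 to -0.50) are thus equally wide.

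Named probes were the 4 members, the 3 nearest probes of each, and a list of blood cell miRNAs. The fits were also run on simulated data with known changes. At a change of 1 log2 unit, 99.8% of ratios and 85.8% of differences were recovered. The simulated arrays held no offset between dye orientations and mostly unchanged probes, unlike these arrays. These shares therefore do not show how the fits perform here. Alternatives were other zero points, scale normalization, no turning, single dye orientations, a dye column, all 178 probes, and leaving out opposite pairs. Scale normalization brought the turned arrays to the same median absolute ratio without centring, so it also acts on the offsets between dye orientations.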

Additional observations from a re-analysis of the deposited data

How the results depend on the processing

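The ratios of miR-142-as, miR-142* and miR-150 stayed below 0 under every alternative tried except without turning, where they were 0.19, 0.32 and 0.29. The differences between probes then turned as well, to -0.41 (miR-142-s minus miR-142-as), -0.54 (minus miR-142*), -0.51 (minus miR-150), -0.12 (miR-142-as minus miR-142*) and 0.027 (miR-142* minus miR-150). With U6 and tRNAs as zero the called ratios of miR-142-as (-0.73), miR-142* (-0.83) and miR-150 (-0.57) did not pass and miR-142-s turned to 0.20. With the median or the off-tissue probes as zero, miR-142-s passed at -1.04 and -1.15. After scale normalization miR-150 (-1.08) and the differences of miR-142-s from miR-142-as (0.91), miR-142* (0.96) and miR-150 (0.68) did not pass. With only the arrays with CD4+CD25+ in Cy5 the same 4 did not pass (-0.74, 0.52, 0.49 and 0.26), and miR-142-as minus miR-142* turned to -0.029. Median centring brought the dye column past the threshold, at 1.30 for miR-142-s (from -0.44), 2.13 for miR-142-as, 2.38 for miR-142* and 2.33 for miR-150. The dye-column model, the arrays with CD4+CD25+ in Cy3 alone and the fit over all 178 probes changed no call of a ratio or difference.

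Leaving out each of 9 pairs of opposite arrays gave -0.56 to -0.026 for miR-142-s, -1.38 to -0.95 for miR-142-as, -1.46 to -1.03 for miR-142* and -1.17 to -0.91 for miR-150. The last 3 were called in 7 of 9 fits each, and not without arrays 3 and 2 or 5 and 6, where nearly all calls on the array were lost. miR-142-s was called in 1, without arrays 5 and 4 (adjusted p = 0.0497). The differences of miR-142-s ranged from 0.60 to 1.16 against miR-142-as and from 0.64 to 1.32 against miR-142*, each called in 6 of 9 and not without array 3, and from 0.41 to 1.06 against miR-150, called in 3 of 9, those without array 1. miR-142-as minus miR-142* ranged from 0.041 to 0.16, miR-142-as minus miR-150 from -0.41 to 0.11 and miR-142* minus miR-150 from -0.50 to -0.0045, with 0 calls by limma in 9 fits each (0 at an unadjusted p under 0.05). Of these, miR-142-as minus miR-150 turned above 0 without arrays 1 and 4 (0.11) and without arrays 3 and 4 (0.021).

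Over all miRNA probes, 15 lower and 115 higher calls became 88 and 3 without turning, 4 and 9 with scale normalization, 7 and 12 with CD4+CD25+ in Cy5 alone, 39 and 9 with the median, and 39 and 8 with off-tissue probes as zero. With CD4+CD25+ in Cy3 alone there were 25 lower calls and with U6 and tRNAs as zero 1. Leaving out pairs gave 0 to 14 lower and 0 to 115 higher calls: 0 and 0 without arrays 3 and 2, 0 and 2 without 5 and 6, 9 and 55 without 1 and 6, 10 and 49 without 1 and 2 and 12 and 68 without 5 and 2. No paired analysis was possible because no label ties an array to its swap, so all pairings were fitted. Signal over background is unknown, so no dim probe could be left out.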
